A study of Mus musculus with 33 samples.

Results

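Slc7a10 and 8 related amino acid transporters were followed through mouse tongue development and in sorted rib cells, in mice with extra expression of the imprinted gene Zac1. The 9 genes were Slc7a10, Slc7a5, Slc7a8, Slc7a11, Slc3a2, Slc1a4, Slc1a5, Slc38a1 and Slc38a2, matched by name among the 27825 genes of each tongue table and the 25965 genes of the rib cell table, and all 9 were found in every table. Slc7a10 was chosen by its higher RPM in biallelic than in wild type tongues, so its genotype values are given below as a description with no test. The other 8 were taken as members of the same transport system. At E13.5, P0 and P20 there were 3 tongues from Zac1o knockout mice, which express Zac1 (Plagl1) from both alleles and are called biallelic here, and 3 wild type tongues. Costal chondrocytes of E18.5 embryos, labelled as pre-hypertrophic and sorted for Cd24a and Cd200, came from 6 biallelic and 5 wild type animals, as pools of around 2000 cells each. The labels describe the replicates as biological, and their litter and sex were not given in the sources used here.

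Neutral amino acids cross the plasma membrane through a few families of carriers that work together. Light chains of the Slc7 family are exchangers that need the heavy chain Slc3a2 (CD98) to reach the cell surface, and they trade an amino acid inside the cell for another one outside. Slc38 carriers bring in glutamine and alanine with sodium and so supply the amino acids that the exchangers spend. Slc7a10 (Asc-1) exchanges small neutral amino acids such as glycine, alanine and serine, D-serine included, and is best known from brain and white fat.

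All values are RPM, reads scaled to the read total of each library, which corrects for depth and not for gene length. The read total ranged from 36832717 to 92249098 in the tongues, from 7221013 to 15689559 in the biallelic rib cells and from 2938462 to 7887305 in the wild type rib cells. In the tongues 3 reads made 0.0325 to 0.0814 RPM and in the rib cells 0.191 to 1.02 RPM, a floor for counting error alone. Expression of Plagl1 was higher in every biallelic library than in every wild type library of its table. It ranged from 157 to 275 RPM in biallelic against 66.1 to 105 RPM in wild type tongues at E13.5, from 430 to 499 RPM against 221 to 243 RPM at P0, and from 50.9 to 77.1 RPM against 23.1 to 30.5 RPM at P20. In the rib cells it ranged from 17.5 to 50.0 RPM in biallelic and from 3.18 to 15.3 RPM in wild type animals. On the first principal component, biallelic replicate 3 at E13.5 lay at -47.5 (the other libraries at 1.6 to 19.9), biallelic replicate 1 and wild type replicate 2 at P0 lay at -28 and -29 (the others at 7.1 to 20.5), and biallelic replicate 3 at P20 lay at 39.8 (the others at -22.4 to 10.1).

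Slc7a10 (ENSMUSG00000030495) lies on the forward strand of chromosome 7, at chr7:35186385-35204898 in GRCm38 as the tables give it. The 250 bases before its RefSeq start, at chr7:35186135-35186384 (GRCm38.p6, forward strand), have a GC content of 69.6%, while the median of all mouse promoters in the same table is 52.4%. They are shown because Plagl1 is a zinc finger factor that is known to bind GC-rich DNA, with the palindrome GGGGCCCC as a published example of such an element. Capitals mark that palindrome, searched on both strands.
Slc7a10: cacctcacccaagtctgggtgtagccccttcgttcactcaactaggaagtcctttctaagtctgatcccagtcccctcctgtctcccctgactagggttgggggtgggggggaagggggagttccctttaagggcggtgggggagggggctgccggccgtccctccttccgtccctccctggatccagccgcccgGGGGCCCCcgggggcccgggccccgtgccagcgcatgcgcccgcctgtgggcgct
Its first base lies 55 bases before the start. The palindrome was present in 1.08% of 32851 mouse promoters of 300 bases. In the 250 bases before the start alone, 0.89% of these promoters held it. So did 3.13% of the 3224 promoters whose 250 bases were at least as rich in GC as those of Slc7a10. Among the 6 transporters with a RefSeq promoter entry (Slc7a10, Slc7a11, Slc1a4, Slc7a8, Slc38a2 and Slc3a2), Slc7a10 alone held it. A match of letters is a description of the sequence and does not show binding.

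Slc7a10 was expressed at a low level in the tongue and was higher in biallelic tongues at each stage. At E13.5 it measured 2.15, 2.50 and 2.81 RPM in biallelic tongues and 0.553, 0.592 and 1.11 RPM in wild type tongues. At P0 the biallelic tongues had 1.59, 1.61 and 2.36 RPM and the wild type tongues 0.51, 0.51 and 1.09 RPM. At P20 the biallelic tongues had 1.17, 1.84 and 2.96 RPM and the wild type tongues 0.375, 0.414 and 0.498 RPM. The genotypes did not overlap at any stage, and all 9 biallelic tongues lay above all 9 wild type tongues, although the lowest biallelic tongue (1.17 RPM, P20) and the highest wild type tongue (1.11 RPM, E13.5) were close. Of all tested genes, 2.43% at E13.5, 5.83% at P0 and 3.14% at P20 were higher in biallelic tongues without overlap. The mean log2 difference of Slc7a10, biallelic minus wild type, was 1.79 at E13.5, 1.47 at P0 and 2.12 at P20, or 3.46-fold, 2.77-fold and 4.35-fold. With any 1 tongue left out, it lay between 1.61 and 2.11 at E13.5, between 1.29 and 1.84 at P0, and between 1.78 and 2.45 at P20. Without both P0 tongues that stood apart it was 1.10 at P0.

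**Figure D1:**
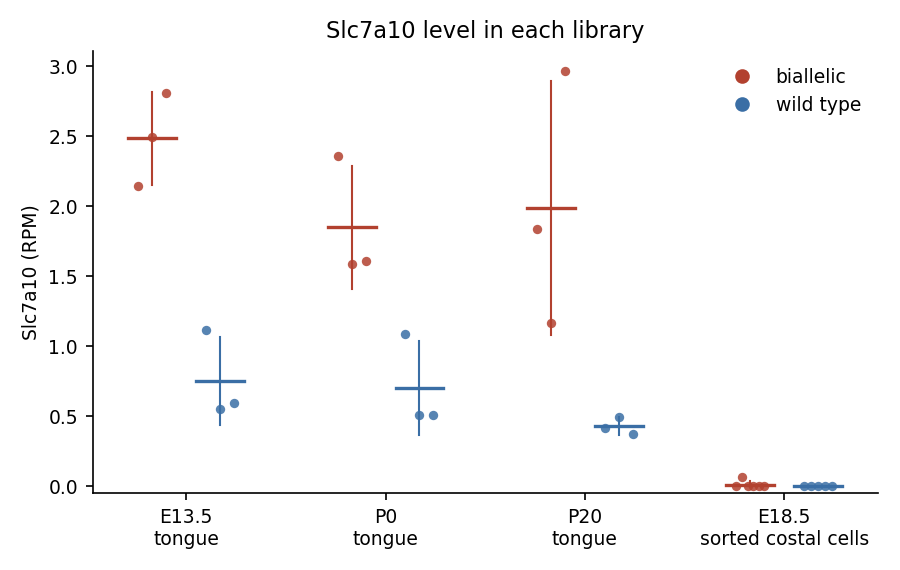
Slc7a10 in each library, in RPM, with biallelic in red left of wild type in blue at each stage; horizontal lines are means and vertical lines SDs (3 tongues per genotype and stage, 6 biallelic and 5 wild type rib cell animals). Every biallelic tongue lies above 1.11 RPM, the highest wild type tongue, and the rib cells lie at or near 0.

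These levels rest on few reads, 66 to 157 in a biallelic tongue and 17 to 67 in a wild type tongue. Slc7a10 reached 1 RPM, the level required for a test, in 4 of 6 tongues at E13.5, 4 of 6 at P0 and 3 of 6 at P20, and all 3 biallelic tongues were among them each time. Wild type replicate 1 was the highest wild type tongue at E13.5 and at P0, while all 3 wild type tongues were close together at P20. In whole tongues, fewer cells of a type and less RNA per cell cannot be told apart.

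Between stages Slc7a10 made no change that passed the test in either genotype (limma, Benjamini-Hochberg adjusted over 13663 genes). In biallelic tongues the log2 change was -0.44 ± 0.38 (SE) for P0 against E13.5, with an adjusted p of 0.296 by limma, and 0.03 ± 0.38 for P20 against P0, with an adjusted p of 0.962. In wild type tongues the changes were -0.12 ± 0.38 and -0.62 ± 0.38, with adjusted p of 0.774 and 0.191 by limma. After quantile normalization the first of these was -1.33 and was called (limma adjusted p 0.0221), while after median centring it was 0.062. The 3 wild type tongues at P20 all lay below the 3 at P0. In order of level, biallelic E13.5, P20 and P0 came first and their ranges overlapped, then wild type E13.5 and P0, which overlapped too, and wild type P20 was lowest. Stages come from separate tables, and E13.5 RNA was extracted with another kit (AllPrep) than P0 and P20 RNA (TRIsure), so stage and extraction cannot be told apart in the first interval.

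In the tables the span of Slc7a10 runs over the end of Lrp3, a receptor gene on the opposite strand, with which it shares 4872 bases. Whether reads were counted by strand was not given in the sources used here. Lrp3 averaged 12.4 ± 1.63 RPM in biallelic and 12.3 ± 1.32 RPM in wild type tongues at E13.5 (SD, n = 3 each), 7.32 ± 0.25 and 6.58 ± 0.73 RPM at P0, and 4.23 ± 0.62 and 3.97 ± 0.51 RPM at P20. Lrp3 thus overlapped between genotypes at every stage. Of 12 genes within 200 kb of Slc7a10, 8, 6 and 7 reached the level for a test at E13.5, P0 and P20, and their log2 differences, biallelic minus wild type, spanned -0.60 to 0.38, 0.03 to 0.32 and -0.18 to 0.15. The genotypes did not overlap for Gpatch1 (higher in biallelic tongues), C230052I12Rik and Ccdc123 (both lower) at E13.5, for Cebpa (higher) at P0, and for none of the 7 at P20. Of all tested genes, 2.43% were higher and 7.69% lower without overlap at E13.5, and 5.83% were higher without overlap at P0. Cebpa, the adipocyte and myeloid transcription factor 64.5 kb before Slc7a10, averaged 6.38 ± 2.37 RPM in biallelic and 6.75 ± 3.68 RPM in wild type tongues at E13.5, 5.38 ± 0.89 and 4.27 ± 0.38 RPM at P0, and 7.65 ± 1.55 and 8.25 ± 1.32 RPM at P20 (SD, n = 3 each).

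Since Slc7a10 is known as a surface protein of white fat cells, fat cell markers were read in the same libraries. The 6 defining markers Adipoq, Plin1, Cidec, Lep, Retn and Cfd were at or near 0 in all tongues. The highest value was 0.378 RPM (20 reads), of Plin1 in a biallelic tongue at P20. The whole list of 15 adipocyte markers, which includes genes shared with muscle and endothelium such as Cd36 and Lpl, summed to 22.0 to 27.5 RPM in biallelic and 21.6 to 27.2 RPM in wild type tongues at E13.5, with 11 and 10 of the 15 detected. Newborn tongues had sums of 193 to 254 RPM (biallelic) and 245 to 274 RPM (wild type), with 14 and 13 detected, and P20 tongues 567 to 914 RPM and 513 to 565 RPM, with 15 and 14 detected. None of the 6 defining markers reached the level for a test between genotypes. Of the other adipocyte markers that did, 3 of 6 at E13.5, 4 of 9 at P0 and 8 of 9 at P20 were higher in biallelic tongues, and 0 were called. Their median log2 difference at P20 was 0.42, beside -0.015 for all genes. All 6 endothelial markers were also higher in biallelic tongues at P20, with a median of 0.29 and 0 called. The P20 tongue with the most Slc7a10, biallelic replicate 3, also had the highest adipocyte sum (914 RPM) and the highest endothelial sum (313 RPM, the other 5 tongues having 163 to 199 RPM). Biallelic replicate 2 had a higher adipocyte sum than replicate 1 (656 against 567 RPM) but less Slc7a10 (1.17 against 1.84 RPM). The part of these cells in the Slc7a10 level was not tested. Without biallelic replicate 3 the P20 difference of Slc7a10 was 1.78.

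Across the 18 tongues, the 5 genes whose log2 levels followed Slc7a10 most closely were Lmf2 (Pearson r = 0.68), Zfp319 (0.62, 1 of the rows under that name), Crlf2 (0.62), Gm13212 (0.55) and Acat1 (0.54), ranked among 13662 genes. Plagl1 was 10th in rank in this order, with r = 0.50, and Phactr2 was last, with r = -0.62. The other 8 transporters ranged from -0.44 (Slc1a4) to 0.24 (Slc3a2). These points share genotype, stage and extraction, so the coefficients only describe the 18 libraries. Slc7a10 was chosen for its genotype difference, and Plagl1 differs by genotype by design. The high rank of Plagl1 thus follows in part from that choice. Lmf2 averaged 9.12 ± 1.32 RPM in biallelic and 7.43 ± 0.29 RPM in wild type tongues at E13.5, 8.46 ± 0.70 and 7.71 ± 0.56 RPM at P0, and 8.13 ± 1.12 and 7.53 ± 0.49 RPM at P20, and its genotype groups overlapped at every stage.

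None of the other transporters differed between the genotypes of the tongue after adjustment. At E13.5, 0 of 7 tested transporters were called by limma, where 0% of all genes were called, and 1 (Slc7a11) had an unadjusted p under 0.05, as did 3.25% of all genes. At P0 it was 0 of 8, with 0.016% of all genes called, and 1 (Slc38a1) at an unadjusted p under 0.05 (3.3% of all genes). At P20 it was 0 of 8, with 0% of all genes called, and 1 (Slc38a2) at an unadjusted p under 0.05 (2.25% of all genes). A second method, voom on the recovered reads, also called 0 at each stage. These results do not show that the levels were equal.

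In a few cases the genotype groups did not overlap even so. Slc7a11, which exports glutamate for cystine and so feeds glutathione synthesis, had 0.901, 1.41 and 1.46 RPM in biallelic and 2.42, 2.43 and 2.62 RPM in wild type tongues at E13.5, a log2 difference of -1.02 ± 0.33 (SE) with a limma adjusted p of 0.992. Slc38a2, the amino acid-regulated sodium-coupled carrier, was lower in biallelic tongues at E13.5 (47.8 ± 1.33 RPM, against 54.4 ± 1.14 RPM in wild type) and higher at P20 (150.3 ± 14.6 RPM, against 123.6 ± 7.02 RPM), with log2 differences of -0.19 and 0.28 and limma adjusted p of 0.992 and 0.99997. Slc38a1, a close relative that carries glutamine, was higher in biallelic tongues at P0 (26.5 ± 1.26 RPM, against 22.4 ± 1.31 RPM), with a log2 difference of 0.24 and a limma adjusted p of 0.9998. Groups without overlap were found for 7.69% of all tested genes in the lower direction and 2.43% in the higher direction at E13.5, for 5.83% in the higher direction at P0 and for 3.14% in the higher direction at P20. Apart from Slc7a10, that makes 2 of 7 transporters at E13.5 and 1 of 8 at P0 and at P20.

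More of the transporters were called between stages than between genotypes, and their patterns over the stages differed from gene to gene. From E13.5 to P0, 5 of 9 rose in biallelic tongues (Slc7a5, Slc7a8, Slc7a11, Slc1a4 and Slc38a2) and 0 fell. In wild type tongues 2 rose (Slc7a8 and Slc38a2) and 1 fell (Slc38a1). At that step 77.2% of all genes were called in biallelic (39.7% higher, 37.6% lower) and 77.8% in wild type tongues (37.9% higher, 39.9% lower), a larger share than among the transporters. From P0 to P20, 3 rose in biallelic tongues (Slc7a11, Slc1a5 and Slc38a2) and 4 in wild type tongues (these and Slc1a4), and Slc38a1 fell in both. There 47.2% of all genes were called in biallelic (29.9% higher, 17.3% lower) and 46.6% in wild type tongues (31.7% higher, 14.9% lower), close to the 4 and 5 of 9 transporters. The median of all genes itself moved by 0.18 in biallelic and 0.22 in wild type tongues between P0 and P20, so smaller changes depend on the scaling. No transporter's change between stages was shown to differ between the genotypes: 0 of 13663 genes passed that test (limma) in any pair of stages, where 766, 185 and 571 genes had an unadjusted p under 0.05 (P0 against E13.5, P20 against P0 and P20 against E13.5).

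**Figure D2:**
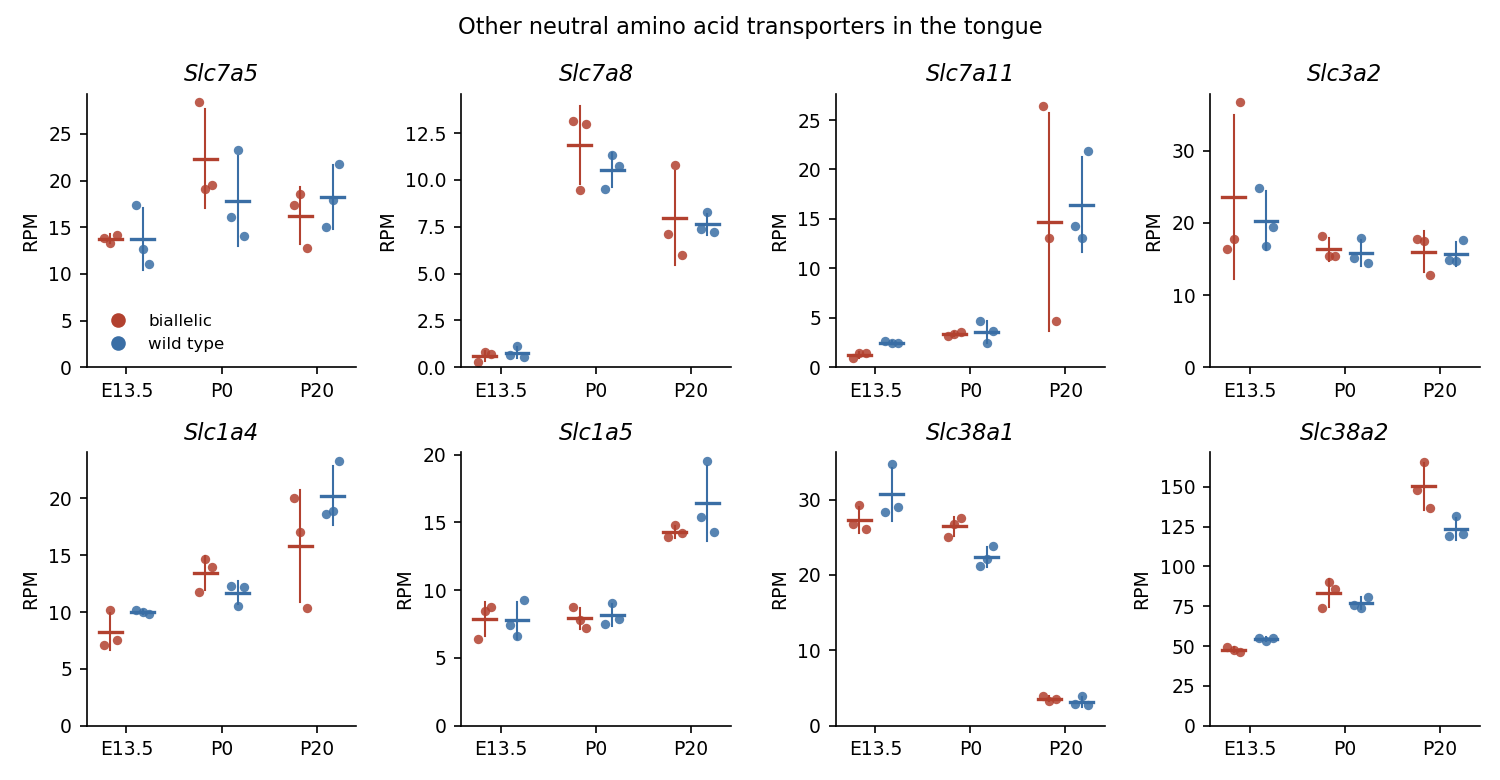
RPM of the 8 other transporters in each tongue by stage, biallelic in red left of wild type in blue, with means (horizontal) and SDs (vertical, n = 3). Slc7a8 is near 0 at E13.5, Slc38a1 is low at P20, and Slc38a2 rises at every stage.

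Among the light chains, Slc7a8 (LAT2), an exchanger of large and small neutral amino acids, made the largest change of the 9. In biallelic tongues it averaged 0.59 ± 0.28 RPM at E13.5, 11.9 ± 2.08 RPM at P0 and 7.97 ± 2.51 RPM at P20. In wild type tongues it averaged 0.77 ± 0.30, 10.5 ± 0.91 and 7.63 ± 0.58 RPM at the same stages (SD, n = 3 each). P0 stood 21.8-fold above E13.5 in biallelic tongues and 14.3-fold in wild type tongues, with limma adjusted p of 5.2e-09 and 2.9e-08. All 6 newborn tongues (9.46 to 13.1 RPM) lay far above all 6 at E13.5 (0.277 to 1.11 RPM). In the same interval the 8 skeletal muscle markers went up by a median log2 change of 6.10 in biallelic and 6.27 in wild type tongues. Adipocyte markers (3.87 in both) and endothelial markers (2.18 and 2.32) also rose, while chondrocyte markers fell (-2.55 and -2.58). The part of any of these cell types in the change of Slc7a8 was not tested.

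Slc7a11 rose later. It measured 4.63, 13.0 and 26.4 RPM in biallelic tongues and 13.0, 14.3 and 21.9 RPM in wild type tongues at P20, against 3.12, 3.37 and 3.55 RPM in biallelic and 2.46, 3.64 and 4.69 RPM in wild type tongues at P0. P20 stood 3.49-fold above P0 in biallelic and 4.60-fold in wild type tongues, with limma adjusted p of 0.0029 and 0.00068. The biallelic value was 2.32-fold without biallelic replicate 1 of P20 and 5.55-fold without biallelic replicate 3, and it was called both times. Every P20 value lay above every P0 value of its genotype, with biallelic replicate 3, the tongue that stood apart, the lowest. The earlier rise from E13.5 to P0 in biallelic tongues (2.72-fold, limma adjusted p 0.0061) had an adjusted p of 0.103 by voom. Slc7a11 shares 4002 bases with Gm37498 on the same strand, and reads of that stretch cannot be assigned with certainty.

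The promoter of Slc7a11 is shown because this gene is known to be induced by Atf4 when amino acids run short, through amino acid response elements. Capitals mark TGATGNAA, the core of such an element, on either strand, in the 250 bases before the RefSeq start (chr3:50443614-50443863, GRCm38.p6, reverse strand).
Slc7a11: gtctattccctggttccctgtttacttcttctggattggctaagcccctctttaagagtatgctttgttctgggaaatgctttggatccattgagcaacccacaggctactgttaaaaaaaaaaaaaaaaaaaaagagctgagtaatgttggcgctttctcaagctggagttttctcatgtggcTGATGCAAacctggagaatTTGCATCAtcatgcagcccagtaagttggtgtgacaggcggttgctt
The motif stood 66 bases before the start in the direction of the gene and 47 bases before it in the opposite direction. Of the other 5 transporters with an entry, Slc1a4 held it once, opposite to the gene and beginning 4 bases before the start, and 3.97% of all promoters held it.

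Slc7a5 (LAT1), the main carrier of leucine and other large neutral amino acids in growing cells, measured 13.3, 13.9 and 14.2 RPM in biallelic tongues at E13.5, 19.0, 19.5 and 28.4 RPM at P0, and 16.2 ± 3.05 RPM (mean ± SD) at P20. In wild type tongues it averaged 13.7 ± 3.30 RPM at E13.5, 17.8 ± 4.82 RPM at P0 and 18.3 ± 3.41 RPM at P20. The rise to P0 passed the test in biallelic tongues (1.59-fold, limma adjusted p 0.0103) but not without biallelic replicate 1 of P0 (adjusted p 0.0661), and in wild type tongues the 1.29-fold difference had an adjusted p of 0.132. The highest P0 value of each genotype, 28.4 RPM in biallelic replicate 1 and 23.2 RPM in wild type replicate 2, came from the P0 tongues that stood apart, and without both the log2 change to P0 was 0.48 in biallelic tongues (limma adjusted p 0.0402) and 0.16 in wild type tongues (0.479). The wild type difference was called after median centring (0.55, limma adjusted p 0.0394) and without wild type replicate 1 of E13.5 (0.55, 0.0383). Reads of Slc7a5 could include those of Gm20388, a gene annotated over its whole span on the opposite strand. Slc3a2, the shared heavy chain, made no change that passed the test: it averaged 23.6 ± 11.4, 16.3 ± 1.61 and 16.0 ± 2.85 RPM in biallelic tongues and 20.3 ± 4.10, 15.8 ± 1.82 and 15.7 ± 1.63 RPM in wild type tongues at E13.5, P0 and P20. Its highest value, 36.7 RPM, came from biallelic replicate 3 at E13.5, the tongue that stood apart. Without biallelic replicate 1 of E13.5, the log2 change to P0 in biallelic tongues was -0.65 and was called (limma adjusted p 0.0276).

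Divided by exon length, the light chains among the 9 could be set against Slc3a2. The lengths are from GENCODE. Its Slc7a11 begins at 49892526 on chromosome 3, against 50364936 as deposited, and its Slc7a10 ends at 35201114, against 35204898. The levels per kb of Slc7a11 and Slc7a10 are therefore less certain. The summed level of Slc7a5, Slc7a8, Slc7a10 and Slc7a11 per kb of exon was 0.86 ± 0.30 times that of Slc3a2 in biallelic and 0.76 ± 0.11 times in wild type tongues at E13.5, 2.04 ± 0.21 and 1.66 ± 0.10 times at P0, and 1.75 ± 0.01 and 1.76 ± 0.13 times at P20. Slc7a5 was the largest of these light chains in every tongue group, with mean shares of the sum from 54.8% to 84.2%. The shares hold within this set only. Slc7a6, read below with the other transporters, was not in the sum and was not divided by length. It averaged 17.5 ± 1.02 RPM in biallelic and 18.03 ± 1.37 RPM in wild type tongues at E13.5. The share of Slc7a10 was 23.0% ± 1.93 in biallelic and 7.95% ± 1.55 in wild type tongues at E13.5, 9.19% ± 0.53 and 4.57% ± 2.38 at P0, and 12.7% ± 8.23 and 2.65% ± 0.61 at P20 (SD, n = 3 each). In biallelic tongues at E13.5, then, Slc7a10 was the second of the summed light chains by level per kb, at 1.18 RPM per kb, after Slc7a5 at 3.72 RPM per kb.

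**Figure D3:**
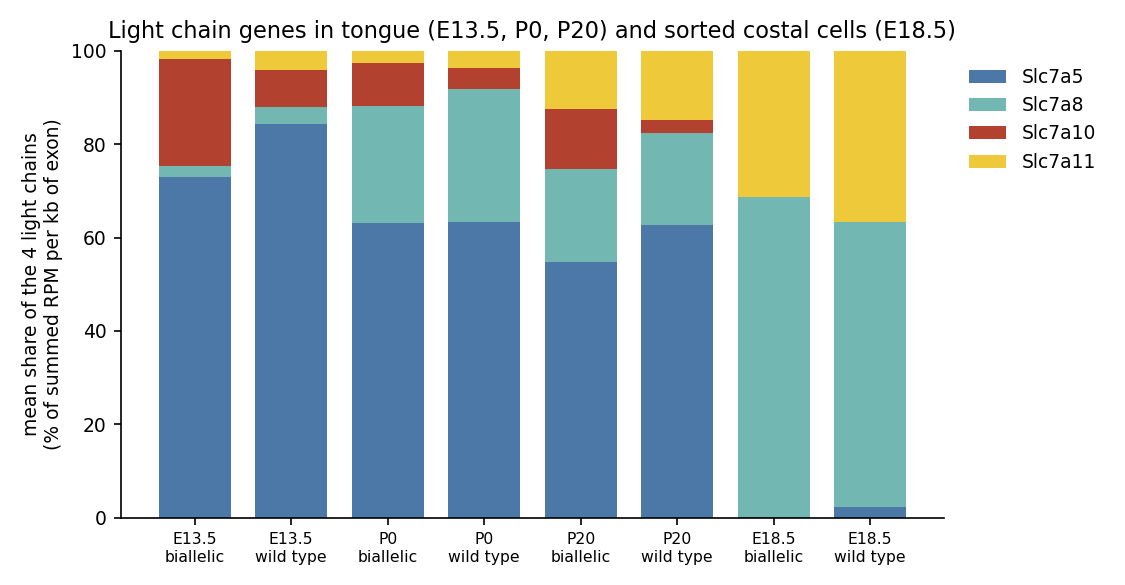
Mean share of each light chain gene in the summed RPM per kb of exon of Slc7a5, Slc7a8, Slc7a10 and Slc7a11, in percent, biallelic left of wild type at each stage (E13.5, P0 and P20 are tongue, E18.5 sorted rib cells; 3 tongues or 6 and 5 animals a bar). The red Slc7a10 segment is 23.0% in biallelic and 7.95% in wild type tongues at E13.5 and is absent from the rib cells at this scale.

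The sodium-coupled carriers parted ways. Slc38a1 averaged 27.3 ± 1.73 RPM in biallelic and 30.7 ± 3.49 RPM in wild type tongues at E13.5, 26.5 ± 1.26 and 22.4 ± 1.31 RPM at P0, and 3.59 ± 0.36 and 3.16 ± 0.65 RPM at P20. The log2 change from P0 to P20 was -2.88 in biallelic and -2.84 in wild type tongues, with limma adjusted p of 4.2e-10 and 5.0e-10, and the 6 values at P20 (2.69 to 3.98 RPM) were far below the 6 at P0 (21.2 to 27.5 RPM). The small decrease from E13.5 to P0 in wild type tongues (-0.45, limma adjusted p 0.0058) had an adjusted p of 0.0848 after median centring. Slc38a2 went the other way. It averaged 47.8 RPM at E13.5, 83.3 RPM at P0 and 150.3 RPM at P20 in biallelic tongues, and 54.4, 77.0 and 123.6 RPM in wild type tongues, with no overlap between neighbouring stages in either genotype. Its log2 changes were 0.80 and 0.85 in biallelic and 0.50 and 0.68 in wild type tongues, all ± 0.10 (SE), with limma adjusted p from 1.1e-06 to 0.00017.

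Slc1a5 (ASCT2), an exchanger that takes up glutamine, and Slc1a4 (ASCT1), which carries alanine, serine and cysteine, belong to the Slc1 family. Slc1a5 averaged 7.88 ± 1.27 and 7.77 ± 1.35 RPM in biallelic and wild type tongues at E13.5, 7.92 ± 0.77 and 8.14 ± 0.80 RPM at P0, and 14.3 ± 0.44 and 16.4 ± 2.78 RPM at P20. It made no change that passed the test before birth and rose 1.81-fold in biallelic and 2.0-fold in wild type tongues by P20, with limma adjusted p of 0.00039 and 0.00011. Slc1a4 averaged 8.28 ± 1.64, 13.4 ± 1.51 and 15.8 ± 4.93 RPM in biallelic tongues and 9.98 ± 0.19, 11.7 ± 0.99 and 20.3 ± 2.60 RPM in wild type tongues at E13.5, P0 and P20. Its rise was called before birth in biallelic tongues (1.64-fold, limma adjusted p 0.0035) and after birth in wild type tongues (1.73-fold, adjusted p 0.0038). The wild type change before birth was called after median centring (0.41, limma adjusted p 0.0409) and quantile normalization (0.40, 0.044), and the biallelic change after birth without biallelic replicate 3 of P20 (0.47, 0.0279). The difference between those changes did not pass the test (0.48 ± 0.28 before birth and -0.60 ± 0.28 after, limma adjusted p 0.886 and 0.999995).

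**Figure D4:**
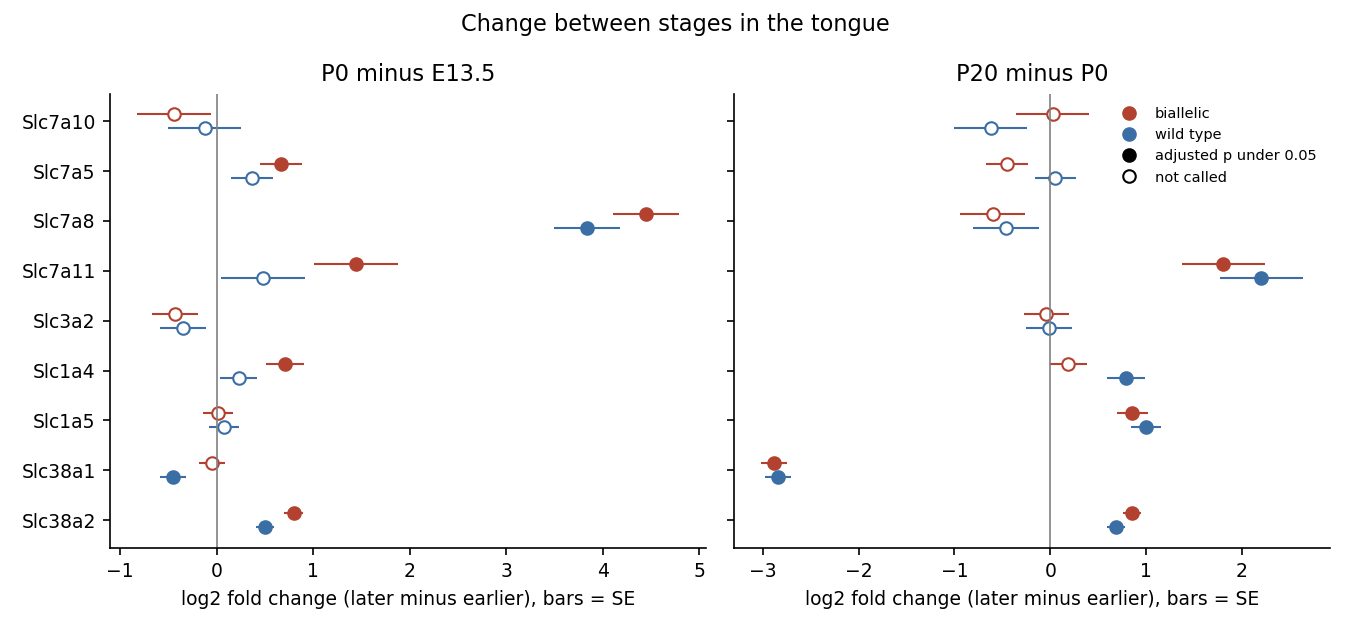
Log2 fold change of each transporter between stages (later minus earlier), biallelic in red above wild type in blue, with SE as bars; filled points have a limma adjusted p under 0.05. Slc7a8 stands out for P0 against E13.5, and Slc38a1 (-2.88 and -2.84) and Slc7a11 (1.80 and 2.20) for P20 against P0.

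In wild type tongues, per kb of exon, Slc38a2 was the highest of the 9 at each stage, with 6.15 ± 0.13 RPM per kb at E13.5, 8.71 ± 0.41 at P0 and 13.99 ± 0.79 at P20. At E13.5 it was followed by Slc3a2 (5.76 ± 1.16), from which it did not differ beyond the spread, and Slc7a5 (3.70 ± 0.89), and Slc7a10 (0.357 ± 0.148), Slc7a11 (0.179 ± 0.008) and Slc7a8 (0.153 ± 0.059) came last. At P20 Slc1a4 (5.16 ± 0.66), Slc7a5 (4.92 ± 0.92), Slc3a2 (4.44 ± 0.46) and Slc1a5 (3.93 ± 0.67) came next and neighbours lay within their spread, while Slc7a10 (0.203 ± 0.030) and Slc38a1 (0.183 ± 0.037) were lowest and did not differ beyond their spread. The places of Slc7a10 and Slc7a11 depend on exon lengths that are less certain, as given above.

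In the sorted rib cells the transporters stood in another order of level. By their markers these cells were not a plain chondrocyte population: 5 macrophage markers (Csf1r, Cd68, Ptprc, Lyz2 and C1qa) summed to 2193 to 2972 RPM in biallelic and 1909 to 2781 RPM in wild type animals, while 8 chondrocyte markers summed to 305 to 879 RPM and 178 to 522 RPM, most of it Col2a1. They are therefore called sorted rib cells here. The first principal component set wild type animals 7, 8 and 9 (-64.3, -79.8 and -89.8) off from the other 8 animals (-17.2 to 52.2). Their macrophage sums of 1909 to 1957 RPM lay below all the others. Animals 1 to 4, all biallelic, have 2 labelled libraries each but 1 column each and were counted once.

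Slc7a10 was not detected in 10 of the 11 animals and had 1 read, 0.0637 RPM, in biallelic animal 2. Slc7a5 was also low, with a median of 0.490 RPM in biallelic (0 to 2.22) and 2.76 RPM in wild type animals (0 to 11.7). Both stayed below the level required for a test, and 7 of the 9 transporters were tested. Of the light chains summed above, Slc7a8 and Slc7a11 made up most of the sum in these cells. Their mean shares per kb of exon were 68.5% and 31.2% in biallelic and 61.0% and 36.7% in wild type animals, with the length of Slc7a11 less certain, as given above. The sum was 0.52 ± 0.11 and 0.40 ± 0.19 times Slc3a2. Slc3a2 itself averaged 713 ± 54.4 RPM in biallelic and 654 ± 60.2 RPM in wild type animals. These libraries were made from polyadenylated RNA by another method than the tongue libraries, so no test was made between them.

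**Figure D5:**
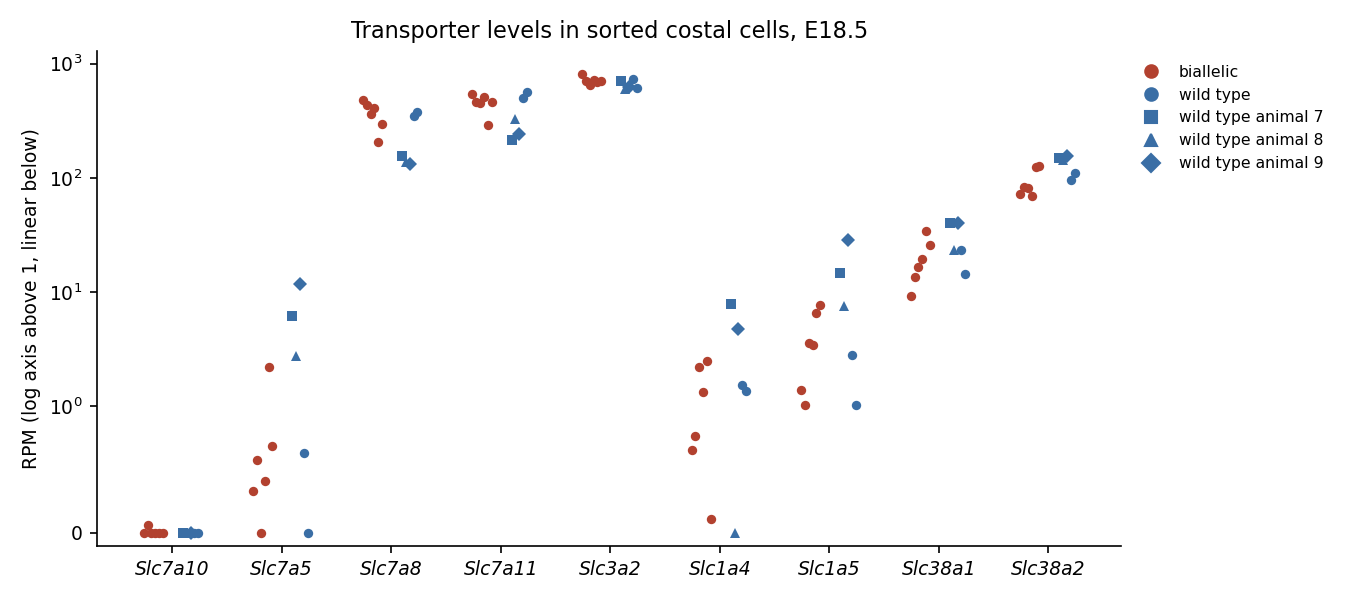
RPM of the 9 transporters in each animal's sorted rib cells (log axis above 1 RPM, linear below), 6 biallelic animals in red left of 5 wild type animals in blue, with wild type animals 7, 8 and 9 drawn as square, triangle and diamond. These 3 animals lie lowest of all for Slc7a8 and highest for Slc38a2.

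Between genotypes, 0 of 7 transporters were called in the rib cells by limma, where 0% of 11127 genes were called, and voom also called 0. At an unadjusted p under 0.05 there were 2 of the 7, beside 11.7% of all genes. Slc7a8 ranged from 206 to 485 RPM in biallelic animals, with a median of 384 RPM, and from 132 to 376 RPM in wild type animals, with a median of 156 RPM, a log2 difference of 0.77 ± 0.31 (SE) with a limma adjusted p of 0.425. Slc38a2 ranged from 69.1 to 126 RPM in biallelic animals, with a median of 82.7 RPM, and from 95.2 to 156 RPM in wild type animals, with a median of 144 RPM, a log2 difference of -0.51 ± 0.21 with the same adjusted p. The groups overlapped in both genes. Without wild type animals 7, 8 and 9 the log2 differences were -0.04 for Slc7a8, -0.18 for Slc38a2, -0.26 for Slc7a11 (0.37 with all animals) and 0.87 for Slc1a5 (-1.0 with all animals), none of them called. That setting left 2 wild type animals, so the lack of calls in it says little. Of the rest, Slc7a11 had medians of 462 RPM in biallelic and 329 RPM in wild type animals, Slc38a1 17.9 and 23.3 RPM, Slc1a5 3.53 and 7.60 RPM, and Slc1a4 1.04 and 1.52 RPM, with overlapping groups and limma adjusted p of 0.534, 0.520, 0.580 and 0.695. Wild type animals 7, 8 and 9 had 132 to 156 RPM of Slc7a8, against 206 to 485 RPM in the other 8.

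Other genes of amino acid supply were read as 3 lists. Of 42 other plasma membrane amino acid transporters, 27 were tested between stages. From E13.5 to P0, 15 rose and 4 fell in biallelic tongues (median log2 change 0.96, all genes 0.05), and 14 rose and 5 fell in wild type tongues (1.003, all genes -0.04). Of all genes, 39.7% rose and 37.6% fell in biallelic and 37.9% rose and 39.9% fell in wild type tongues. From P0 to P20, 13 rose and 4 fell in biallelic tongues, and 14 rose and 4 fell in wild type tongues, with medians of 0.29 and 0.35, beside 0.18 and 0.22 for all genes. Of all genes, 29.9% rose and 17.3% fell in biallelic and 31.7% rose and 14.9% fell in wild type tongues at that step. Slc6a19, the sodium-coupled neutral amino acid carrier known from gut and kidney, was at 0 reads in wild type tongues at E13.5 and reached 3.83 ± 1.04 RPM at P0 and 13.4 ± 1.84 RPM at P20. Slc7a1, a carrier of cationic amino acids, rose 6.40-fold to 34.4 ± 3.33 RPM at P0, against 5.38 ± 0.67 RPM at E13.5, and Slc7a6 fell to 7.49 ± 1.43 RPM, against 18.03 ± 1.37 RPM (wild type). Slc38a10 fell by 0.42 on the log2 scale with a limma adjusted p of 0.00022. After birth Slc38a3, a glutamine carrier, rose 9.29-fold to 33.9 ± 4.12 RPM at P20, against 3.68 ± 0.68 RPM at P0, and Slc6a6, the taurine carrier, rose 2.47-fold, while Slc38a4 and the glutamate carrier Slc1a3 fell by 2.92 and 1.63 on the log2 scale (wild type). Apart from Slc38a10, limma adjusted p of these named genes were at most 1.1e-05.

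Genes of the amino acid response, which Atf4 drives when amino acids are scarce, changed in both directions. Of 30 tested, 7 rose and 15 fell from E13.5 to P0 in biallelic tongues and 8 rose and 13 fell in wild type tongues, with list medians of -0.29 and -0.32, beside 0.05 and -0.04 for all genes. At that step 39.7% of all genes rose and 37.6% fell in biallelic, and 37.9% rose and 39.9% fell in wild type tongues. From P0 to P20, 13 rose and 3 fell in biallelic and 11 rose and 2 fell in wild type tongues, with list medians of 0.21 and 0.20, close to the 0.18 and 0.22 of all genes. In wild type tongues Pck2 (mitochondrial phosphoenolpyruvate carboxykinase) and Tars (threonyl-tRNA synthetase) fell by 1.96 and 1.06 to P0, while Cebpb rose by 1.68 and Nupr1 reached 1.59 ± 0.12 RPM at P0, against 0.0127 ± 0.022 RPM at E13.5. From P0 to P20 Atf5 rose by 2.26 and Sesn2 by 1.08, and Eif2ak4, the kinase that senses uncharged tRNA, fell by 0.77 and Eif4ebp1 by 0.59 on the log2 scale. Of 22 tested genes of mTORC1 and leucine sensing, 7 rose and 10 fell in biallelic and 5 rose and 10 fell in wild type tongues from E13.5 to P0 (list medians -0.09 and -0.19). The shares of all genes at that step are those given above. Rptor rose by 1.41 and Mtor by 1.05 in wild type tongues, and Sec13 and Wdr24, of the complex upstream of mTORC1, fell by 1.43 and 1.27. From P0 to P20, 5 rose and 3 fell in biallelic and 5 rose and 2 fell in wild type tongues (list medians 0.19 and 0.23), shares no larger than the 29.9% and 17.3% and the 31.7% and 14.9% of all genes. The smallest p in wild type tongues were those of Tsc2 (0.51), Lamtor2 (0.66), Mios (-0.40) and Sec13 (-0.25).

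Between genotypes none of the genes of the 3 lists was called by limma in any table. At an unadjusted p under 0.05 there were 0 in each list at E13.5, and 1 transporter of 21 and 1 amino acid response gene of 29 at P0. At P20 there was 1 amino acid response gene of 30. The shares of all genes were 3.25%, 3.3% and 2.25%. In the rib cells 13 of 30 amino acid response genes had an unadjusted p under 0.05, all lower in biallelic animals, where 11.7% of all genes were under it and 7.71% were lower in biallelic animals. The other lists had 2 of 15 transporters and 3 of 22 mTORC1 genes under it. The amino acid response list had a median of -0.60, beside -0.11 for all genes, and a lowest limma adjusted p of 0.423. Without wild type animals 7, 8 and 9, with 2 wild type animals left, that median was -0.18, beside -0.10 for all genes. With all animals, 24 of the 30 genes were lower and 6 higher in biallelic animals. Of the genes named above, Cebpb averaged 7.34 ± 4.96 RPM in biallelic (n = 6) and 29.1 ± 16.0 RPM in wild type animals (n = 5, SD). Sesn2 went the other way, with 47.0 ± 7.43 RPM in biallelic and 39.3 ± 12.5 RPM in wild type animals. Neither was called.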

How the data were processed

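RNA-seq libraries of mouse tongue (18) and of sorted E18.5 costal chondrocytes (29 columns in all for 33 labelled samples) were analysed. The authors deposited 4 tables of log2 values, log2 RPM per gene, 1 column per library or animal. Reads were trimmed with Trim Galore 0.4.2 and aligned to GRCm38 with TopHat2 2.1.0 (tongue) or HISAT2 (chondrocytes), per the submitters' processing notes. The counter and its use of strand were not given in the sources used here. Per the labels' protocols, tongue libraries were made from 300 ng of rRNA-depleted RNA by the dUTP method, and chondrocyte libraries by SMART-seq2. A gene with 0 reads holds 0.9 reads in the deposited log2 values, and is given as 0 RPM here. Values below 1000 reads came out whole within 0.05 of a read in 100% of cases in every library, relative to that library's own total, so RPM of all tables share 1 definition. Whether the 2 libraries of animals 1 to 4 were pooled was not given in the sources used here.

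Genes at 1 RPM or more in 3 of 6 tongues, or 5 of 11 chondrocyte animals, entered limma 3.58.1 (R 4.3.3, mean-variance trend, Benjamini-Hochberg adjusted p under 0.05). Stages were compared in 1 fit of all 18 tongues with 6 groups, over genes at 1 RPM in at least 3 tongues. Fits were checked on simulated data. Promoters are from RefSeq (GRCm38.p6), for 6 of 9 members; exon lengths are from GENCODE. Alternatives were log2(RPM + 1), a minimum of 5 RPM or none, median centring, quantile normalization, no trend, voom on recovered reads, a replicate block, each library left out and, chosen after seeing the data, both P0 tongues that stood apart left out. The rib cells were also fitted without wild type animals 7, 8 and 9, which left 2 wild type animals. The members and lists were chosen with earlier results of these data known. The text names the members, the 5 genes most correlated with Slc7a10, neighbours within 200 kb, and up to 2 rising and 2 falling genes per list with the smallest p in the wild type stage contrasts.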

Additional observations from a re-analysis of the deposited data

Results flagged for a closer look

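The genotype difference of Slc38a2 had opposite signs at the first and the last tongue stage, -0.19 at E13.5 and 0.28 at P20 (log2, biallelic minus wild type), neither of them called. All 3 biallelic tongues lay below all 3 wild type tongues at E13.5 and above them at P20, and the log2 difference of the genotype effect, P20 minus E13.5, was 0.47 ± 0.14 (SE). Its unadjusted p was 0.00344 and its limma adjusted p 0.999 over 13663 genes, so the difference did not pass the test. Leaving out any 1 tongue gave 0.39 to 0.53.

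Slc7a11 in the sorted rib cells had a biallelic animal far from the others of its group: animal 5, the lowest, had a log2 RPM of 8.19 (291 RPM), and the other 5 biallelic animals had 452 to 536 RPM. The limit for this flag is passed by chance in about 1 group in 20, and the groups of several transporters were looked at. The same animal also had the lowest Slc7a8 of the biallelic animals (206 RPM) and lay lowest of them on the first principal component (-17.2).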

How the results depend on the processing

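Depth limits Slc7a10, with 17 to 67 reads in a wild type tongue, and Slc7a8 at E13.5, with 12 to 58 reads in a tongue. The genotype difference of Slc7a10 changed in size with the processing. With 1 added to RPM it was 1.002, 0.75 and 1.02 at E13.5, P0 and P20, and with quantile normalization 2.08 at P0 and 2.87 at P20. Its sign is no support, since the gene was chosen for it. Groups without overlap keep their sign with a tongue left out or with 1 added. The number of genes called between genotypes at P0 was 1 with median centring, no filter, quantile normalization or voom and 0 with no trend, and 0 to 4 with a library left out. It was 1 without biallelic replicate 1 and wild type replicate 2 of P0, a setting chosen after seeing the data. The number whose genotype effect differed was 1 with no trend (P20 against E13.5) and 1 with median centring or voom (P20 against P0), and with a library left out 0 to 8 (P0 against E13.5), 0 to 8 (P20 against E13.5) and 0 to 1 (P20 against P0). Without the filter the stage counts were 19861 (P0 against E13.5, biallelic), 20373 (the same, wild type) and 15070 (P20 against P0, wild type). Transporters called for P0 against E13.5 in wild type numbered 5 with quantile normalization. Replicate numbers did not pair the tongues (correlations of deviations from -0.65 to 0.36), and a replicate block left 0 genes called at P0.

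Differences that were not called and changed sign had these log2 values, and the cause was not tested. P20 against P0 gave -0.0056 with median centring and -0.0144 with quantile normalization for Slc1a4 (biallelic), -0.17, -0.20 and -0.12 with median centring, quantile normalization and voom for Slc7a10 (biallelic), and -0.17, -0.17 and -0.15 for Slc7a5 (wild type). P0 against E13.5 gave 0.062 with median centring for Slc7a10 (wild type), 0.0494 with median centring for Slc38a1 (biallelic) and -0.0031 with voom for Slc1a5 (biallelic). Without both P0 tongues named above, P0 against E13.5 gave -0.0565 and -0.0013 for Slc1a5 (biallelic and wild type) and 0.0593 for Slc7a10 (wild type), and P20 against P0 gave 0.0399 and 0.0797 for Slc3a2 (biallelic and wild type). Slc3a2 in the rib cells gave -0.15 with quantile normalization. Without wild type animals 7, 8 and 9 (2 wild type animals left) the rib cells gave 0.87 (Slc1a5), -0.26 (Slc7a11) and -0.0436 (Slc7a8).

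With 1 library left out, genotype differences ranged from -0.0881 to 0.16 (Slc1a5, E13.5), -0.11 to 0.038 (Slc1a5, P0), -0.24 to 0.35, -0.0322 to 0.14 and -0.0645 to 0.18 (Slc3a2, E13.5, P0 and P20), -0.31 to 0.16 and -1.04 to 0.22 (Slc7a11, P0 and P20), -0.11 to 0.22 (Slc7a5, E13.5) and -0.22 to 0.20 (Slc7a8, P20). For P0 against E13.5 the ranges were -0.12 to 0.10 and -0.0317 to 0.21 (Slc1a5, biallelic and wild type), -0.0812 to 0.0041 (Slc38a1, biallelic) and -0.49 to 0.20 (Slc7a10, wild type). For P20 against P0 they were -0.0061 to 0.47 (Slc1a4, biallelic), -0.12 to 0.12 and -0.10 to 0.0797 (Slc3a2, biallelic and wild type), -0.31 to 0.36 (Slc7a10, biallelic) and -0.10 to 0.26 (Slc7a5, wild type). Calls were also gained, those of Slc7a10, Slc7a5, Slc3a2 and Slc1a4 given with these genes above and these others: Slc7a8 was lower at P20 than at P0 with voom, by 0.77 in biallelic and 0.68 in wild type tongues (adjusted p 0.0041 and 0.0109), with quantile normalization, by 0.76 and 0.67 (0.0214 and 0.0398), and with log2(RPM + 1) in biallelic tongues, by 0.54 (0.0254), and Slc7a5 in biallelic tongues with median centring, quantile normalization and voom (adjusted p 0.0313 to 0.0316). Of 968 stage values under the alternatives, 914 kept direction and side of the threshold.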
